A study of Homo sapiens with 4 samples.

Results

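The ID genes and a group of SMAD-pathway regulators were followed through 4 days of blood-directed differentiation of H1, a widely used human embryonic stem cell line. The 8 members were chosen by gene symbol and found by their Entrez gene identifiers: ID1, ID2, ID3, ID4, SMAD6, SMAD7, SMAD9 and BAMBI. All 8 were listed in all 4 libraries, among 19390 gene identifiers in the series. The series holds wild-type H1 cells at day 0 (undifferentiated), day 2, day 3 and day 4, with 1 library for each day and no replicates. Cells stayed in a custom mTeSR1 medium throughout. For the first 2 days it carried 50 ng/ml BMP4 and 40 ng/ml activin A, and for the next 2 days it carried 50 ng/ml bFGF and 40 ng/ml VEGF. The day 2 library therefore ends the BMP4 and activin A step, and the day 3 and day 4 libraries come from within and at the end of the VEGF and bFGF step. A culture that runs with neither step over the same days was not analysed here, so the factors and the time in culture cannot be told apart.

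Bone morphogenetic proteins (BMPs) bind paired serine/threonine kinase receptors, which phosphorylate SMAD1, SMAD5 and SMAD9, and these enter the nucleus with SMAD4. ID genes are the classic early targets of this branch. They encode helix-loop-helix proteins that lack a DNA-binding basic region, so that they pair with E proteins such as TCF3 and keep them from DNA. SMAD6 and SMAD7 are inhibitory SMADs that block receptor signalling, SMAD6 mainly in the BMP branch and SMAD7 in the BMP and activin branches, and BAMBI is a membrane protein shaped like a receptor without a kinase. In the embryo BMP signals pattern the primitive streak and the mesoderm that gives rise to vessels and blood. SMAD9 is itself a receptor-activated SMAD, so the group is not made of inhibitors alone.

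The libraries held 5.04 to 5.49 M estimated counts, so that 1 read was worth 0.182 to 0.196 CPM, the unit of counts scaled to the library total. The cell states on the labelled days were described by lists of 5 markers each, chosen with earlier results of these data known. All 5 pluripotency markers exceeded 10 CPM at day 0, and their summed level was 2487 CPM there, 722 CPM at day 2, 465 CPM at day 3 and 295 CPM at day 4. The primitive streak list summed to 0.970, 501, 199 and 45.4 CPM at days 0, 2, 3 and 4, and the endothelial list to 39.4, 42.8, 144 and 349.5 CPM. TEK was the only endothelial marker over 10 CPM at days 0 and 2, at 33.4 and 35.3 CPM, and all 5 exceeded 10 CPM at day 4. The blood list stayed at 1.35 to 9.27 CPM, with the erythroid genes GATA1 and HBE1 at 0 counts before day 4.

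All 8 members were higher at day 2 than at day 0. With 1 library a day there is no test and no p-value. A rule of size was used instead: among genes that reached 1 CPM in 1 or both of the libraries compared, those whose log2(CPM + 1) was 1 or more above or below that of the earlier day, a 2-fold difference on that scale, were called higher or lower. All 8 members passed the 1 CPM minimum in every comparison, and 8 of 8 were called higher at day 2, against 12.9% of 15379 genes tested. At a 4-fold threshold 6 of 8 were called, against 4.63% of all genes. Of these 6, SMAD9 fell short of 4-fold with a pseudocount of 5 CPM and on the deposited FPKM with 1 FPKM added. Without that addition its FPKM ratio was 8.57-fold. No member was called lower at 2-fold, against 8.81%. The median difference of the members was 3.16 on the log2 scale and that of all genes tested was -0.0009. Members were chosen with earlier results of these data known, so the count describes these genes and is no independent evidence about the family. The sample is a mixture of cells, and more cells of a type cannot be told apart from more RNA per cell.

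**Figure D1:**
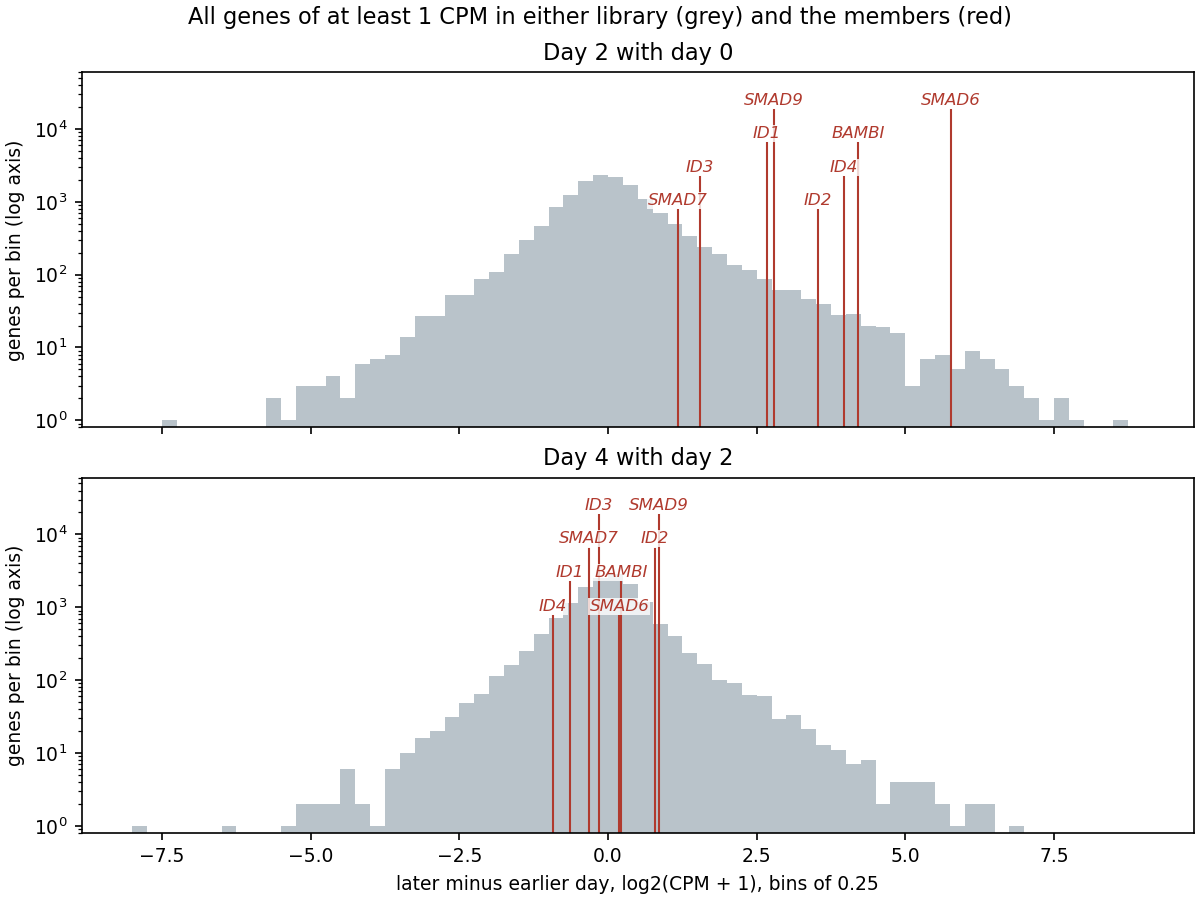
Distribution of the difference in log2(CPM + 1) over all genes that reached 1 CPM in a library of the pair (grey bars, bins of 0.25, log axis of gene counts), with each member as a red line, for day 2 minus day 0 (top) and day 4 minus day 2 (bottom). At day 2 the members lie between 1.18 (SMAD7) and 5.76 (SMAD6), to the right of the bulk of genes, and between days 2 and 4 they lie within it, from -0.93 (ID4) to 0.85 (SMAD9).

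The ID genes differed in how far they were from silent at the start. ID1 (gene ID 3397), the most abundant member of the family at day 0 per transcript length, measured 52.0, 335, 201 and 215 CPM at days 0, 2, 3 and 4. It was 6.45-fold higher at day 2 than at day 0 (95% counting interval 5.67 to 7.37). Intervals cover counting error only, not variation between cultures. Day 2 was its highest day, and days 3 and 4 did not differ beyond counting error (1.07-fold, 0.981 to 1.16).

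ID3 (gene ID 3399), which like ID1 was already present in undifferentiated cells, measured 54.5, 161, 143 and 145 CPM at days 0, 2, 3 and 4. Its difference at day 2 was the smallest among the ID genes, 2.96-fold (2.58 to 3.40). Its 3 later days lay close together, with days 3 and 4 within counting error of each other (1.01-fold, 0.916 to 1.12).

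ID2 (gene ID 3398), also known from early lymphoid and mammary development, measured 9.11, 116, 164 and 201 CPM. It was 12.7-fold higher at day 2 (9.44 to 17.5) and higher again on each later day, by 1.42-fold from day 2 to 3 (1.27 to 1.58) and by 1.22-fold from day 3 to 4 (1.12 to 1.34). Of the 4 ID genes it was the only one whose highest day was day 4. No pair of its days lay within counting error.

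ID4 (gene ID 3400), a family member best known from neural and mammary progenitors, measured 5.62, 103, 106 and 53.6 CPM. It was 18.3-fold higher at day 2 (12.6 to 27.6), the largest ratio in the family, from 29 counts at day 0. Days 2 and 3 did not differ beyond counting error (1.03-fold, 0.916 to 1.17). Day 4 was 1.98-fold lower than day 3 (1.72 to 2.29), just short of the 2-fold threshold.

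**Figure D2:**
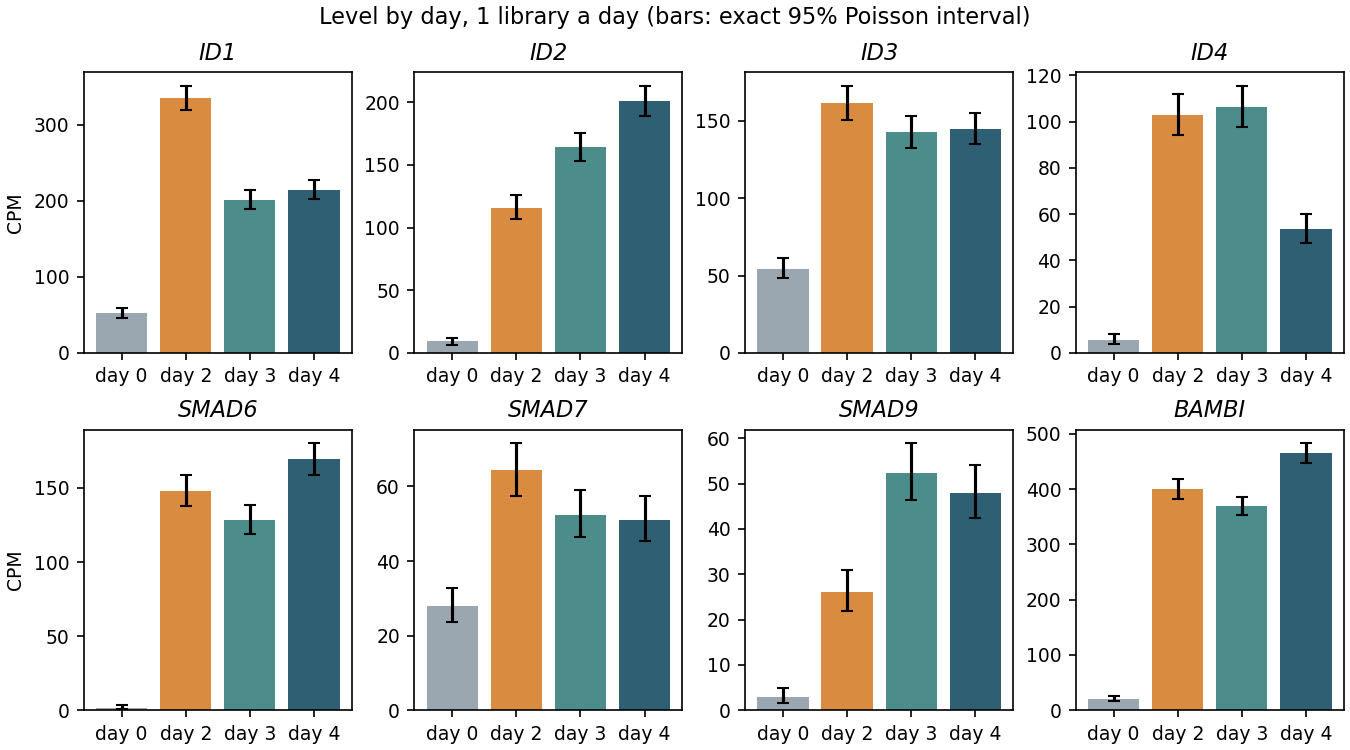
CPM of the 8 members at days 0, 2, 3 and 4, 1 library a day, each panel with its own linear axis from 0 and error bars for the exact 95% Poisson interval of the count. All 8 panels step up between day 0 and day 2, after which ID2 is higher on each later day, up to 201 CPM, ID4 ends at 53.6 CPM and SMAD9 is highest at day 3, at 52.4 CPM.

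Levels of different genes can be set side by side only per transcript length, for which the deposited FPKM (fragments per kilobase of transcript, scaled to depth) were used. At day 0 the 4 ID genes summed to 107.6 FPKM, of which ID1 made up 50.4%, ID3 42.0%, ID2 6.25% and ID4 1.37%. At day 2 they summed to 569 FPKM, with ID1 at 58.5%, ID3 at 22.6%, ID2 at 14.4% and ID4 at 4.54%. The makeup then moved toward ID2. At day 4 the sum was 491 FPKM, with ID1 at 43.8%, ID2 at 29.6%, ID3 at 23.9% and ID4 at 2.79%. ID2 and ID3 changed places: ID2 stood below ID3 by FPKM at days 0 and 2, at nearly its level at day 3 (118 against 115 FPKM), and above it at day 4 (145 against 117 FPKM).

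The E protein genes, whose products ID proteins bind, stayed within 2-fold over the same days. TCF3, which encodes E12 and E47, measured 238, 206, 220 and 229 CPM at days 0, 2, 3 and 4. TCF12 measured 144, 164, 159 and 125 CPM. TCF4 measured 141, 239, 175 and 125 CPM, the widest range of the 3. None of the 3 was 2-fold higher or lower in any of the 5 comparisons. The summed FPKM of the 3 E protein genes was 105, 109, 104 and 95.03, so the ratio of ID to E protein FPKM was 1.02 at day 0, 5.22 at day 2, 4.42 at day 3 and 5.17 at day 4. This ratio is of transcripts per length and says nothing of the proteins.

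**Figure D3:**
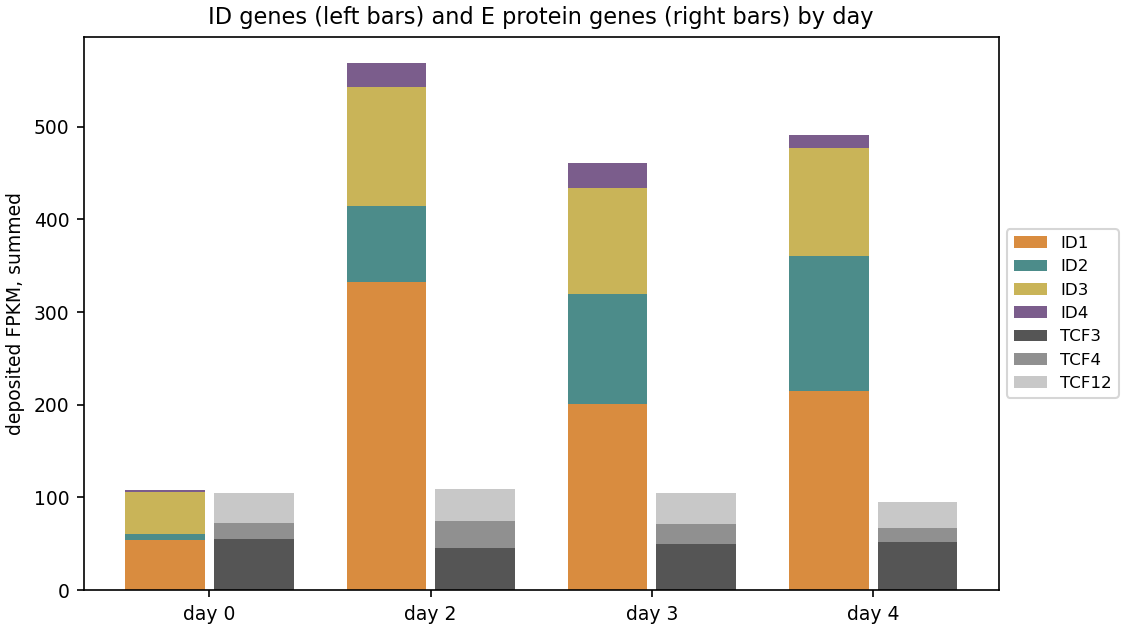
Deposited FPKM of the ID genes (left, coloured, stacked) and of the E protein genes TCF3, TCF4 and TCF12 (right, grey, stacked) on each day, 1 library a day, without error bars. The ID stack goes from 107.6 FPKM at day 0 to 569 at day 2 and 491 at day 4, while the E protein stack stays between 95.03 and 109 FPKM.

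The inhibitory SMAD genes behaved unlike each other. SMAD6 (gene ID 4091) measured 1.75 CPM at day 0, from 9 counts, and 148, 128 and 169 CPM at days 2, 3 and 4. Its ratio at day 2, 84.9-fold (44.5 to 186), was the largest among the members, and 35 of 15379 genes had a larger difference in log2(CPM + 1). The 9 counts at day 0 set the width of this interval. By deposited FPKM, which divides by a transcript length that the file gives as 2886 bases at day 0 and 1847 bases at day 2, the ratio was 128-fold.

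SMAD7 (gene ID 4092) was expressed at day 0 and measured 27.9, 64.3, 52.4 and 51.1 CPM at days 0, 2, 3 and 4. It was 2.30-fold higher at day 2 (1.89 to 2.82), the smallest ratio of the 8, with an interval that reaches below 2-fold. Days 3 and 4 did not differ beyond counting error (1.03-fold, 0.865 to 1.22). The order of the inhibitory pair was therefore opposite before and after the BMP4 and activin A step. By FPKM, SMAD6 stood at 0.0586 times SMAD7 at day 0, and at 3.32, 3.45 and 4.76 times at days 2, 3 and 4.

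BAMBI (gene ID 25805) measured 20.8, 399.6, 369 and 465 CPM at days 0, 2, 3 and 4. It was 19.3-fold higher at day 2 (15.8 to 23.6) and stayed there. By FPKM it took place 3 among the 8 members at day 0 (12.3), came after ID1 at day 2 (228 against 332.5), and the highest at days 3 and 4 (214 and 271). In the day 4 library BAMBI ranked 207 by FPKM among all genes.

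SMAD9 (gene ID 4093), a receptor-activated SMAD of the BMP branch, measured 2.91, 26.1, 52.4 and 48.0 CPM. It was 8.97-fold higher at day 2 (5.25 to 16.5), from 15 counts at day 0. At day 3 it was again higher, 2.01-fold by CPM (1.63 to 2.49), while its difference in log2(CPM + 1) was 0.98 and missed the threshold. Days 3 and 4 did not differ beyond counting error (1.09-fold, 0.918 to 1.298). Per length it was the lowest of the 8 members on all 4 days, at 0.53, 4.54, 9.25 and 8.57 FPKM.

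Since the members moved together at day 2, the 250 bases upstream of their RefSeq transcription starts (assembly GRCh38.p14) were searched on both strands for short sequences known to bind SMAD proteins, and for the E box that E proteins bind. Windows were found for all 8 members, 10 in all because SMAD7 has 3 listed starts. The window of ID1 held none of the 5 searched sequences, which says only that these letters are not in it. GGCGCC, a GC-rich SMAD site, stood in 16.4% of all 35116 windows and in 1 of the 10, that of BAMBI, where it occurred 3 times. GTCTAGAC, the palindromic SMAD box, stood in 0.182% of all windows and in 1 of the 10, that of SMAD6, where it began 12 bases before the start. GCCGNCGC stood in 12.9% of all windows and in those of SMAD9 and BAMBI. In BAMBI this match overlaps the last GGCGCC, and only the bases it shares with that site are in capitals. GTCTG, a shorter SMAD-type match, stood in 38.0% of all windows and in those of 4 members: ID3, ID4, BAMBI and SMAD7. CANNTG, the E box, stood in 61.8% of all windows and in those of 4 members: ID2, ID4, SMAD7 and SMAD9. A match is a description of the letters, and no binding was measured. The stretches of BAMBI (chr10:28677301-28677390, plus strand), SMAD6 (chr15:66702176-66702235, plus strand) and SMAD9 (chr13:36920299-36920368, minus strand) are shown. They were chosen because they hold the GGCGCC, GTCTAGAC and GCCGNCGC matches respectively, which alone are in capitals. The SMAD6 stretch ends at the base before the listed start, and those of BAMBI and SMAD9 end 131 and 61 bases before it. The 2 GTCTG matches in the BAMBI stretch are left in lower case.
BAMBI: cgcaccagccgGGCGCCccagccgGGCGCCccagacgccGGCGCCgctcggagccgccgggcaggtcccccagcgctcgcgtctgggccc
SMAD6: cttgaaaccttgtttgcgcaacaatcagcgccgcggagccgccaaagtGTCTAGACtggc
SMAD9: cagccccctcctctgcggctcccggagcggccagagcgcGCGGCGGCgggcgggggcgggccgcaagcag
The share of G and C in the 10 upstream windows ranged from 48.0% and 48.4% (2 of the SMAD7 windows) to 78.4% (SMAD9), 78.8% (ID4) and 81.2% (BAMBI), against a mean of 57.2% over all windows.

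After BMP4 and activin A were replaced by VEGF and bFGF, each member was at day 4 within 2-fold of its day 2 level. In the comparison of day 4 with day 2, 0 of 8 members were called higher, against 8.18% of 15406 genes, and 0 of 8 were called lower, against 7.60%. Their median difference was 0.02 on the log2 scale, as was that of all genes (0.02). Members lay on both sides of that median, from -0.93 (ID4) to 0.85 (SMAD9). In the single-day comparisons 0 of 8 were called at day 3 against day 2 (5.82% of 15286 genes higher and 3.51% lower) and 0 of 8 at day 4 against day 3 (2.96% of 15367 genes higher and 4.25% lower). A count of 0 of 8 is near what these background shares give, so it sets no member apart from other genes. These comparisons share libraries with each other and with day 2 against day 0.

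Within the 2-fold limits the members still differed in direction between days 2 and 4. ID2 measured 1.73-fold higher at day 4 (1.57 to 1.92) and SMAD9 1.84-fold higher (1.49 to 2.28). BAMBI measured 1.16-fold higher (1.10 to 1.23) and SMAD6 1.14-fold higher (1.04 to 1.26). ID4 measured 1.92-fold lower (1.66 to 2.22), ID1 1.56-fold lower (1.45 to 1.68), SMAD7 1.26-fold lower (1.07 to 1.48) and ID3 1.11-fold lower (1.01 to 1.23). All of these intervals exclude 1, but differences of this size between single libraries have no replicate check. Against day 0, 7 of 8 members were still called higher at day 4 (16.1% of 15652 genes), the exception being SMAD7 at 1.83-fold (1.49 to 2.25), and none was lower (11.9%). At 4-fold 6 of 8 were called (6.27% of genes), of which ID1 lay just over that threshold at 2.03 on the log2 scale and fell short of it with a pseudocount of 5 CPM, with plain totals and on the deposited FPKM.

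**Figure D4:**
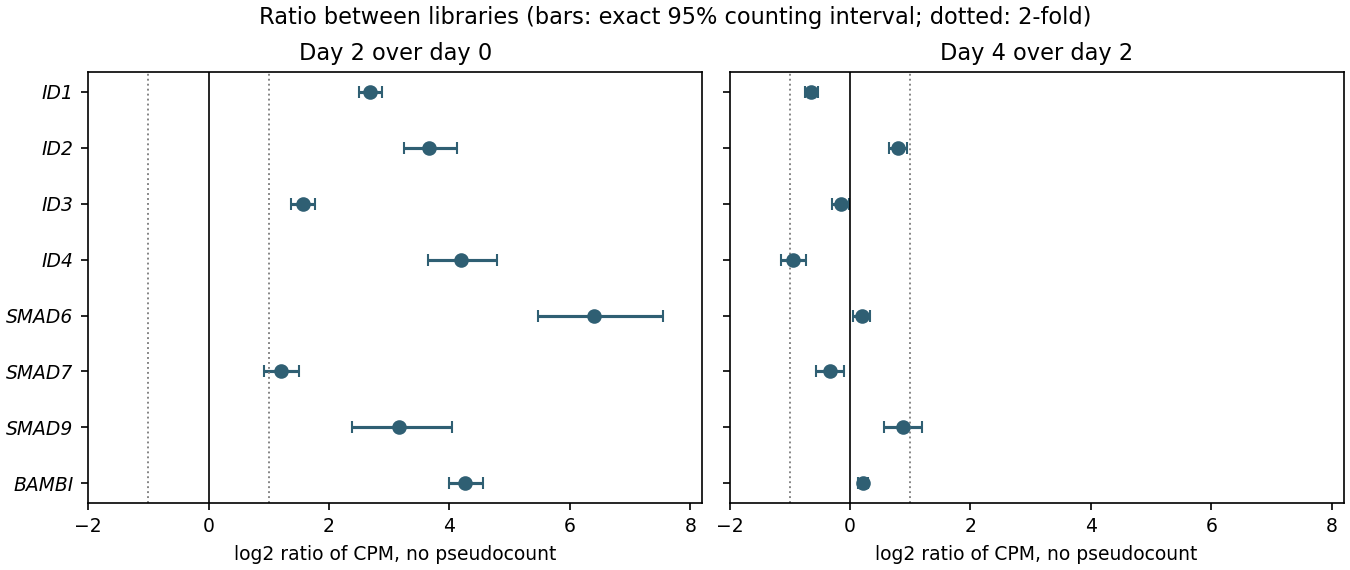
Ratio of CPM on a log2 axis without a pseudocount for day 2 over day 0 (left) and day 4 over day 2 (right), with the exact 95% counting interval as bars and 2-fold as dotted lines, 1 library a day. On the left all 8 points lie right of the 2-fold line, from SMAD7 at 2.30-fold to SMAD6 at 84.9-fold, and on the right all 8 lie between the 2-fold lines.

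The rest of the BMP pathway was described by 8 lists. At day 2 against day 0, 12.9% of all genes tested were called higher and 8.81% lower. In lists this short, a count of none lower is near that share. Among ligand genes, 2 of 7 measured were called higher at day 2 and 1 lower. BMP2 measured 1.55, 257, 154 and 71.1 CPM at days 0, 2, 3 and 4. BMP4, the gene of the ligand that was also added as protein, measured 0.970, 179, 212 and 174 CPM. BMP4 transcripts thus stayed at 0.972 times the day 2 level at day 4 (0.887 to 1.06), within counting error, in medium to which BMP4 was no longer added. BMP8A was 2.50-fold lower at day 2 (1.35 to 4.90), at 2.94 CPM.

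Secreted BMP antagonists were called higher at day 2 in 8 of 11 measured cases and lower in 1, against 12.9% and 8.81% of all genes. Their median log2 difference was 2.98. NOG, which encodes noggin, measured 0.194, 50.0, 29.6 and 38.9 CPM, and its day 0 value is 1 count. CER1, which binds BMPs and NODAL, measured 4.85, 2287, 26.3 and 1.64 CPM.

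Of 10 BMP and activin receptor genes 3 were called higher at day 2 and none lower, against 12.9% and 8.81% of all genes. BMPR2, the type II BMP receptor, measured 41.3, 262, 167 and 90.5 CPM and was 6.35-fold higher at day 2 (5.49 to 7.37). ACVR1, a type I receptor for BMPs, measured 21.3 and 59.2 CPM at days 0 and 2. ACVRL1, a type I receptor known from endothelium, measured 0.194, 5.69, 26.3 and 38.5 CPM. None of the 5 signal-transducing SMAD genes was called in any comparison, with a median of 0.55 at day 2. SMAD1 and SMAD5, the BMP-branch partners of SMAD9, measured 32.8 and 37.1 CPM, and 105 and 160.1 CPM, at days 0 and 2. SMAD3, of the activin branch, measured 25.02 and 51.0 CPM, a difference of 0.999 that lay just under the threshold. SMAD2 measured 107 and 157 CPM, and SMAD4, the shared partner, 97.7 and 88.1 CPM.

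Brakes on SMAD signalling outside the 8 members were called higher at day 2 in 3 of 12 cases and lower in none, with a median of 0.15. The shares of all genes were 12.9% higher and 8.81% lower. PMEPA1, known as an activin and TGF-beta target, measured 30.3, 95.5, 37.7 and 18.5 CPM, and was 5.15-fold lower at day 4 than at day 2 (4.16 to 6.44). SMURF2, a ubiquitin ligase that acts with SMAD7, measured 30.3, 64.5, 99.5 and 168 CPM. LDLRAD4 measured 0.582 and 6.67 CPM at days 0 and 2. The other BMP-responsive genes were called higher in 10 of 12 measured cases and lower in none, with a median of 4.57. TBX3 measured 1.16, 272, 314 and 281 CPM, MSX2 1.16, 174, 164 and 108 CPM, and HAND1 1.75, 289, 443 and 594 CPM. Several members of this list were near 0 counts at day 0, so that they passed the 1 CPM minimum through day 2.

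Between days 2 and 4, when 8.18% of all genes tested were called higher and 7.60% lower, the lists differed in their counts. Of the ligand genes 4 of 8 measured were called higher at day 4 than at day 2 and 1 lower, and of the secreted antagonists 3 of 11 were higher and 3 lower. Of the receptor genes 2 of 10 were higher and 2 lower, and of the other brakes 1 of 12 was higher, near the share of all genes, and 2 lower. No E protein gene and no signal-transducing SMAD gene was called. Of the other BMP-responsive genes 6 of 13 were higher and none lower, with a median of 0.04. Of the tissue-restricted partners of E proteins 5 of 9 measured were higher and 3 lower. Several of these reached the 1 CPM minimum on only 1 of the days compared.

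Of the tissue-restricted partners of E proteins, 7 of 15 passed the minimum at day 2 against day 0. Of these, 6 were called higher and none lower, against 12.9% and 8.81% of all genes, with the same limit from the minimum. MESP1, an early mesoderm factor, measured 0 counts at day 0 and 9.22 CPM at day 2, at least 15.8-fold higher against a floor of 3 counts in the day 0 library. At days 3 and 4 MESP1 measured 0.966 and 0.182 CPM, from 5 counts and 1 count. HAND1 belongs to this list as well.

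**Figure D5:**
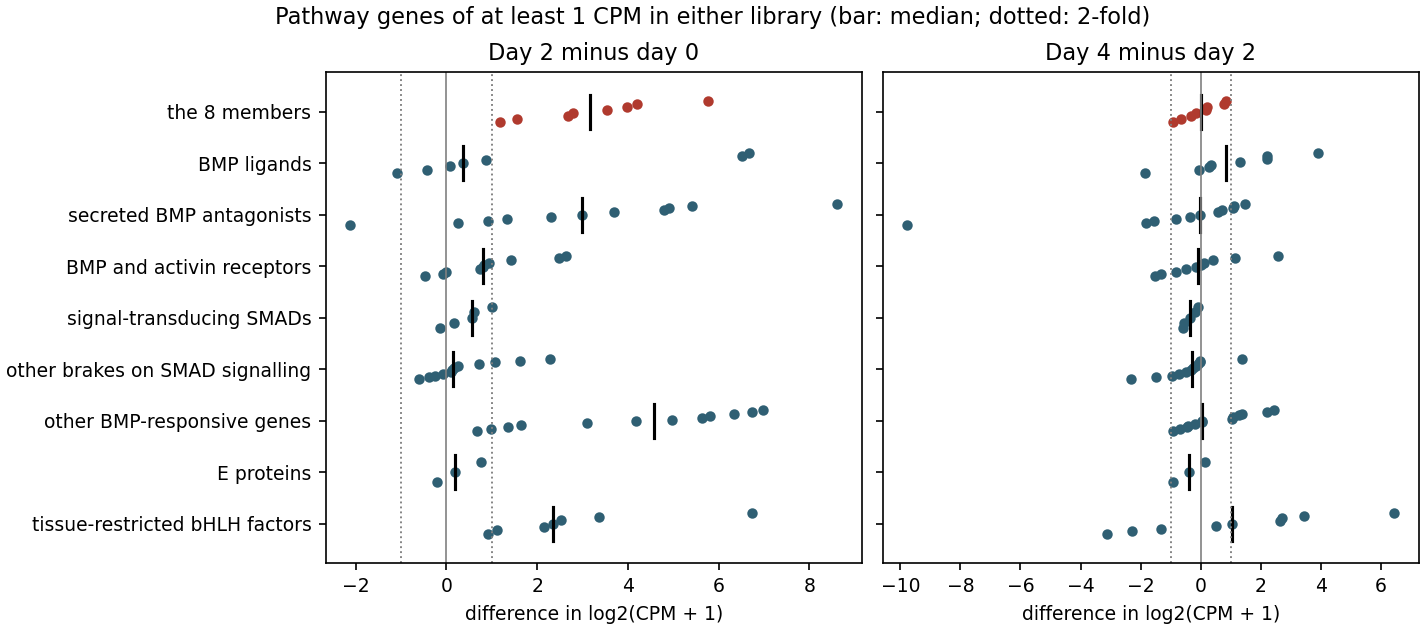
Difference in log2(CPM + 1) of each measured gene in 8 pathway lists (blue) and of the 8 members (red), with the median as a black bar and 2-fold as dotted lines, for day 2 minus day 0 (left) and day 4 minus day 2 (right). The left and right axes differ in range. At day 2 the members (median 3.16), the secreted antagonists (2.98) and the other BMP-responsive genes (4.57) lie mostly to the right, while signal-transducing SMADs (0.55) and E proteins (0.19) lie near 0.

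Profiles over the 4 libraries were compared by the Euclidean distance of mean-centred log2(CPM + 1), a measure that rests on 4 points and is a description only. Among the members, ID3 and SMAD7 were the nearest pair (0.42), followed by ID2 and BAMBI (0.54) and by ID2 and SMAD9 (0.61). The inhibitory pair SMAD6 and SMAD7 was the farthest apart (4.17). Among 11565 genes of at least 10 CPM in any library, members included, a near non-member of ID1 was NCAM1 (0.21), and the nearest of ID2 were TRPA1 (0.18) and IER5L (0.26). For ID3 they were MLLT11 (0.05) and GPATCH11 (0.06), and for ID4 PDE4D (0.21) and MATN3 (0.30). For SMAD7 they were PPM1K (0.04) and LINC00963 (0.07), and for SMAD9 FOXA2 (0.13) and PLA2G2A (0.21). BAMBI was nearest to ZNF804A (0.17) and TGFB1 (0.19). SMAD6 had the most distant neighbours, COL9A2 (0.41) and GATA3 (0.43), and only 2 genes lay within 0.5 of it, against 839 for SMAD7 and 376 for ID3.

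Some markers of several other cell types were also higher at day 2. The amnion or trophoblast list summed to 2.33, 192, 228 and 162 CPM at days 0, 2, 3 and 4, with 3 of 5 markers (GATA3, TFAP2A and ISL1) over 10 CPM from day 2 on, while CGA and GCM1 stayed under 1 CPM. The endoderm list summed to 4.65, 101, 133 and 179.7 CPM, with FOXA1 and APOA1 at 0 counts at day 0, and SOX17 made up most of the sum at day 2 with 90.4 CPM. AFP, which made up most of the sum at day 0, measured 4.27, 1.37, 6.76 and 22.7 CPM. Of the 4 measured endoderm markers, 3 were called higher at day 2 and 1, AFP, was called lower. The smooth muscle or fibroblast list summed to 351, 937, 1033 and 1692 CPM, carried at day 0 by COL1A1 and TAGLN, with DCN at 0 counts before day 4. TAGLN measured 111, 665, 306 and 314 CPM at days 0, 2, 3 and 4, and COL1A1 235, 241, 665 and 1234 CPM. Of the 4 measured markers of this list, 2 were called higher at day 2, against 12.9% of all genes, and none lower, against 8.81%. The neural list stayed at 4.18 to 13.4 CPM, with SOX1 and NEUROD1 at 0 counts on every day. The part of changing cell types in the differences of the members was not tested.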

How the data were processed

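The members and lists were chosen with earlier results of these data known. Each deposited file gives, per the file headers, an expected count (an estimated count of reads), a transcript length and FPKM for each Entrez gene. For the expected counts and FPKM that the authors deposited, RSEM, Bowtie, BWA and hg19 are listed, per the submitters' processing notes, with no versions or roles stated in what was used here. The series' design text names a different set, BWA with an ANOVA and TopHat with Cufflinks, and which of them gave the deposited values is not stated. The deposited length, in bases, was constant across libraries for all 8881 genes with 1 listed transcript and varied for 5859 of 6734 with several. Of 19390 identifiers, 19273 matched the RefSeq table of GRCh38.p14, which was used for names. An unlisted gene was taken as 0. No member overlaps another gene listed in the files, and no named copy of a member was listed.

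Expected counts were rounded, and CPM used TMM factors (0.981 to 1.02; edgeR 4.0.16, R 4.3.3). Intervals are exact Poisson or conditional binomial at 95% (scipy 1.17.1, numpy 2.4.6, pandas 2.3.3, Python 3.11.15, matplotlib 3.10.9). Named genes were the 8 members, up to 3 genes of each list with the largest difference at day 2 and at least 5 CPM in either library, all E protein and signal-transducing SMAD genes, and the 2 nearest profiles of each member. Motif letters were chosen after the expression values were seen. With 1 library a group, edgeR's test could not be fitted. Alternatives were pseudocounts of 0.1 and 5 CPM, median-of-ratios factors, plain totals, no minimum, a minimum of 5 CPM, deposited FPKM, counts not rounded, protein-coding genes alone for the background, CPM per kilobase for ID shares, and a 50 CPM minimum for profiles. Some genes that the rule names are not reported here.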

Additional observations from a re-analysis of the deposited data

How the results depend on the processing

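Of 80 recomputed counts of members called higher or lower at 2-fold, over 5 comparisons and 8 alternative settings, 79 were within 1.5 times the reported count. The exception was day 3 against day 2 with a pseudocount of 0.1 CPM, where 1 member in place of 0 was called higher: SMAD9, at 1.003 in place of 0.98 on the log2 scale. At 4-fold, a check added after seeing the data, 5 members in place of 6 were called higher at day 2 against day 0 with a pseudocount of 5 CPM (SMAD9 at 1.97) and on the deposited FPKM, and 5 in place of 6 at day 4 against day 0 with that pseudocount, with plain totals and on the FPKM, where ID1 was at 1.95, 1.996 and 1.97. Recomputed log2 differences of single members, 320 in all, were set against the distance from the middle to the edge of the log2 counting interval. Of these, 312 moved by no more than that distance, 8 moved by more, and none of those called changed sign. The settings of no minimum and of a 5 CPM minimum do not enter a member's log2 difference. Their 40 values each could not move and are no check. At day 2 a pseudocount of 5 CPM lowered SMAD6 to 4.50 and ID4 to 3.34, and the deposited FPKM, whose pseudocount of 1 is in FPKM, lowered SMAD9 to 1.86. The background depends on the pseudocount, an alternative chosen after seeing the data: with 5 CPM, the share of genes called higher was 8.004% at day 2 against day 0, 2.45% at day 3 against day 2, 0.826% at day 4 against day 3, 3.94% at day 4 against day 2 and 9.97% at day 4 against day 0, and 4.12%, 1.26%, 1.34%, 3.95% and 6.75% were called lower in the same order. With 0.1 CPM, 5.54% were lower at day 3 against day 2, and 4.89% were higher and 6.91% lower at day 4 against day 3. With a minimum of 50 CPM, 9 of the 16 nearest-profile genes were kept. No paired analysis was possible because each day is 1 library. For the same reason no library could be left out, and depth limits mainly SMAD6, SMAD9 and ID4 at day 0, which rest on 9, 15 and 29 counts.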

Other observations

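The transcript length that the files give for a gene with several transcripts differs between libraries, and for SMAD6 it differed more than for the other members. SMAD6, with 3 listed transcripts, had 2886 bases at day 0, 1847 at day 2, 1902 at day 3 and 1776 at day 4, the day 0 value resting on 9 counts. SMAD7, with 4 listed transcripts, had 2699, 2652, 2663 and 2533 bases. ID1, with 2, had 1003, 1012, 1018 and 1022 bases, and SMAD9, with 2, had 5481, 5592, 5592 and 5552 bases. Which transcripts were present on which day was not measured at the level of the gene files.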
